A study of Mus musculus with 9 samples.

Results

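The Notch pathway was followed through 10 genes: the receptors Notch1, Notch2 and Notch3, the ligands Jag1 and Dll1, the transcriptional repressors Hes1, Hey1, Hey2 and Heyl, and the feedback regulator Nrarp. They were selected by gene symbol from a table of 54532 genes, and each symbol had an entry. After a minimum on read counts, 14004 genes of the table could be tested, 7 of the 10 Notch genes among them. Hey1, Heyl and Nrarp were below this minimum.

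Poly(A) RNA was sequenced from ST2 cells, a mouse bone marrow stromal line described in the labels as wild-type mesenchymal stem cells from bone. All cells were collected at 72 h. The 3 groups, each with 3 libraries, were vehicle, recombinant human Wnt3a (rhWnt3a, 50 ng/ml), and rhWnt3a together with OSMI (20 µM), an inhibitor of O-GlcNAc transferase, the enzyme that attaches O-GlcNAc to nuclear and cytoplasmic proteins. For the last group the sample titles name both agents whereas the treatment label names OSMI only, so its rhWnt3a dose is not given there, and no group received OSMI alone. The study asked how O-GlcNAcylation takes part in Wnt-stimulated osteoblast formation. The samples come from 1 cell line. The paper's legend to a heatmap of these data calls the replicates biological. Neither the paper nor the sample labels say whether the libraries of a group came from separate cultures. P-values therefore measure the spread between these libraries, part of which may be technical.

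Notch receptors are membrane proteins that bind Jagged and Delta-like ligands on neighbouring cells. Binding exposes the receptor to ADAM proteases and then to γ-secretase, and the released intracellular domain enters the nucleus, where it joins RBPJ and Mastermind and switches on genes such as those of the Hes and Hey families and Nrarp. In bone, Notch signaling is known to hold mesenchymal progenitors back from becoming osteoblasts, whereas Wnt signaling drives osteoblast formation.

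Each library held 16135898 to 17583945 counts over genes. Levels are given as CPM (counts scaled to a common library size) after TMM scaling, and as RPKM (CPM divided by gene length in kilobases) wherever different genes are compared. The lowest level set apart from 0 was taken as 3 counts, which equals 0.170 to 0.191 CPM. Stromal markers were abundant, with the 8-gene list summing to 20607 to 27207 CPM in vehicle, 17047 to 20123 with rhWnt3a and 8553 to 16931 with rhWnt3a and OSMI. Thy1 was the exception within that list, at 0 to 4 counts per library. Most of the sum was Col1a1 and Col1a2, with means of 10055 and 9352 CPM in vehicle. Cxcl12 and Vcam1 fell with rhWnt3a (log2 fold change −2.31 and −0.93, edgeR adjusted p = 1.64e-05 and 0.00240). Col3a1 and Vcam1 fell on adding OSMI (−1.99 and −0.96, adjusted p = 0.0170 and 0.00666). No other change of a stromal gene passed the test in these comparisons. The endothelial list of 7 genes summed to 1.48 to 4.08 CPM over all libraries, the blood and macrophage list of 5 genes to 0.350 to 1.98 CPM, and the epithelial list of 4 genes to at most 0.244 CPM. The mural list of 7 genes summed to 2260 to 2655 CPM in vehicle, 490 to 678 with rhWnt3a and 593 to 1183 with both agents. Nearly all of this was Acta2. The adipocyte list of 4 genes summed to 42.0 to 50.8 CPM in vehicle, 10.3 to 13.0 with rhWnt3a and 11.7 to 14.4 with both agents. Of its genes Fabp4 and Pparg fell with rhWnt3a (log2 fold change −2.49 and −1.73, edgeR adjusted p = 9.72e-04 and 8.80e-05). On adding OSMI they went opposite ways. Pparg rose (0.63, adjusted p = 0.0374), and Fabp4 was lower without passing the test (−1.06, adjusted p = 0.109). Every OSMI library of Fabp4 lay below every rhWnt3a library. Adipoq and Plin1 had at most 3 and 1 counts. The part of these lists in the Notch results was not tested. In these bulk samples, fewer cells of a type and less RNA per cell cannot be told apart.

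In each group, 1 library lay apart from the other two: vehicle library 3, rhWnt3a library 2 and rhWnt3a with OSMI library 3. The mean squared log2 distance of these libraries from their group was 0.392 to 0.439, against 0.242 to 0.286 for the other libraries. Of the spread left once group means were removed, 54.8% fell along 1 direction. Along this axis, vehicle libraries 1 and 2, rhWnt3a libraries 1 and 3 and OSMI library 3 lay on one side, and the other libraries on the opposite side. Gene length moved with this axis: the median deviation of the 2230 tested genes of at least 8000 bases, less that of the 2784 under 2000 bases, was 0.130 to 0.501 on the log2 scale in the libraries of the first side and −0.547 to −0.249 in those of the other. Notch1, Notch2 and Notch3 have transcripts of over 8000 bases, so their values are also given within each side. The first side holds 2 libraries of vehicle, 2 of rhWnt3a and 1 of OSMI, and the other side 1, 1 and 2. Differences within a side carry no test.

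Per length, Notch2 was the most abundant of the 10 genes in vehicle (27.0 ± 10.2 RPKM, SD, n = 3), followed by Jag1 (14.3 ± 0.633), Notch1 (2.64 ± 1.25) and Hes1 (2.37 ± 1.22). The Notch1 and Hes1 levels overlapped. Hey2 (0.203 ± 0.0318 RPKM), Dll1 (0.188 ± 0.0745) and Notch3 (0.185 ± 0.0557) were an order of magnitude lower and overlapped with each other. The Hey repressors Hey1 and Heyl and the feedback regulator Nrarp, which is induced by Notch and limits it, were close to undetectable. Hey1 had 0 to 7 counts per library, Nrarp 0 to 2, and Heyl 0 in all 9 libraries, which allows at most 0.170 to 0.191 CPM per library. Differences in these 3 genes were not detectable at this depth. For Nrarp, 79.6% of the transcript is shared with the overlapping Gm38287, which itself had 0 counts, and the level of Nrarp is therefore uncertain.

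**Figure D1:**
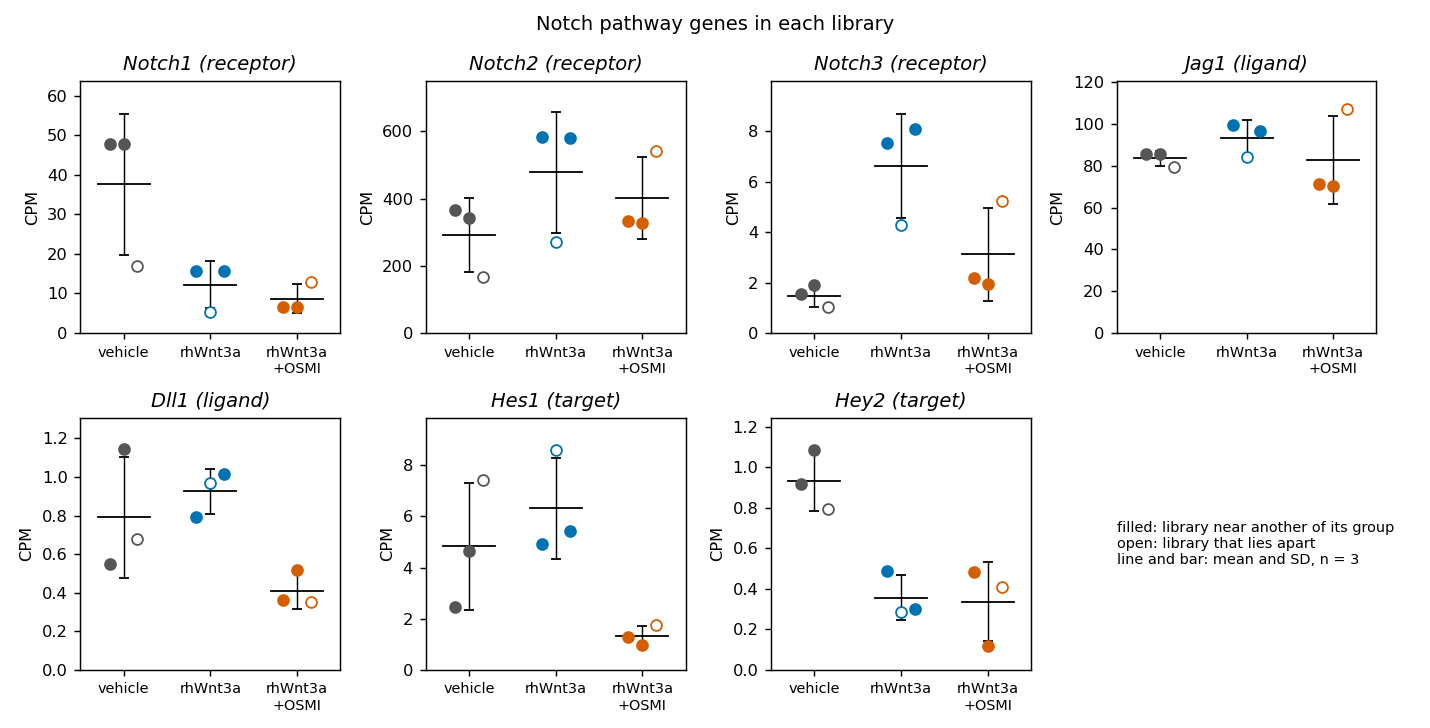
CPM of the 7 tested Notch genes in each library of the 3 groups, with the mean and SD of 3 libraries; open symbols are the 3 libraries that lay apart. Notch1 in the rhWnt3a and OSMI groups lies below every vehicle library, Notch3 in the rhWnt3a group above every vehicle library, and Hes1 with rhWnt3a and OSMI below every library of the other groups.

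With rhWnt3a, Notch3 rose 4.46-fold. Notch1 was 3.08-fold lower in the fit without passing the test, and Notch2 was not called. Of the 7 tested Notch genes 1 was called, or 14.3%, against 8.78% of all tested genes (2.92% called higher and 5.86% called lower); a call needed a Benjamini-Hochberg adjusted p under 0.05 in edgeR's quasi-likelihood test and a log2 fold change beyond 0.5. The log2 fold changes of the 7 genes had a median of 0.23, with 5 above 0 and 2 below, beside a median of 0.04 for all tested genes. By the unadjusted p, 3 of the 7 passed, against 15.4% of all tested genes.

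Notch3 (chr17:32120820-32166880, minus strand, GRCm38), a receptor best known from vascular smooth muscle and pericytes, was at 1.53, 1.91 and 1.02 CPM in vehicle and at 7.54, 4.26 and 8.08 CPM with rhWnt3a. Every rhWnt3a library lay above every vehicle library. In the fit it rose by 2.16 on the log2 scale (SE 0.44, 95% interval 1.18 to 3.13, edgeR adjusted p = 0.0123). It was 2.12 between the libraries of the first side of the axis and 1.95 between those of the other. The direction held in every fit, but the adjusted p was 0.0572 without vehicle library 1 and 0.0516 without rhWnt3a library 3. Of the 7 mural markers, which label the cells in which Notch3 is best known, 3 could be tested. Acta2 and Cspg4 fell with rhWnt3a, opposite to Notch3: Cspg4 was at 22.7, 24.7 and 11.2 CPM in vehicle and 7.12, 3.98 and 6.22 CPM with rhWnt3a (log2 fold change −1.76, adjusted p = 0.00635), and Acta2 had a log2 fold change of −2.18 (adjusted p = 8.71e-04). Des, at 41 to 63 counts in vehicle and 46 to 63 with rhWnt3a, was not called (0.10, adjusted p = 0.886). Of the markers below the count minimum, Rgs5 had at most 2 counts, Myh11 at most 9 and Abcc9 at most 1 in any library, and Kcnj8 was at 0. The part of these markers in the Notch3 difference was not tested.

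Notch1 (chr2:26457903-26516663, minus strand), the receptor most often linked to progenitor maintenance, was at 47.9, 47.9 and 17.0 CPM in vehicle and at 15.6, 5.29 and 15.8 CPM with rhWnt3a. All 3 rhWnt3a libraries were below all 3 vehicle libraries, although vehicle library 3 lay just above rhWnt3a libraries 1 and 3. Its fitted log2 fold change of −1.62 (SE 0.49, 95% interval −2.72 to −0.53) did not pass the test (edgeR adjusted p = 0.0754). Without vehicle library 3 it was −1.97 (adjusted p = 0.0225), and without the 3 libraries that lay apart it was −1.64 (adjusted p = 1.18e-10). Each of the 3 was the farthest from its group, so leaving them out shrinks the spread by construction (SE 0.099 against 0.49). Between libraries of the same side of the axis the difference was −1.60 and −1.66. DESeq2 called Notch1 lower (−1.64, adjusted p = 0.00914). Of 21 alternatives 7 called it and 14 did not. Leaving out 1 library gave −1.97 to −1.26, the latter without rhWnt3a library 2 (adjusted p = 0.151), and the highest adjusted p was 0.238, without vehicle library 2.

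Notch2 (chr3:98013527-98150361, plus strand) was at 367, 342 and 166 CPM in vehicle and at 583, 271 and 579 CPM with rhWnt3a. The groups overlapped, since the low rhWnt3a library lay below both high vehicle libraries. Its log2 fold change was 0.71 (95% interval −0.11 to 1.53, edgeR adjusted p = 0.335). Within either side of the axis the difference was 0.71. It was called when the 3 libraries that lay apart were left out (0.68, adjusted p = 7.23e-08), and when the side of the axis was a term in the fit (0.71, adjusted p = 4.92e-04). Both settings were chosen after seeing the spread and take it out, which lowers their p.

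Ratios between receptors within a library do not depend on how libraries are scaled against each other. Notch1 made up 8.95, 9.53 and 7.16% of the summed RPKM of the 3 receptors in the vehicle libraries, and 1.95, 1.43 and 1.99% with rhWnt3a. Notch3 made up 0.505, 0.673 and 0.757% in vehicle and 1.67, 2.03 and 1.80% with rhWnt3a. Neither share overlapped between these groups, and Notch2 held the rest, 90.8 ± 1.17% in vehicle and 96.4 ± 0.164% with rhWnt3a (SD, n = 3). The log2 ratio of Notch1 to Notch2 was −3.42 ± 0.24 in vehicle and −5.77 ± 0.27 with rhWnt3a, a difference of −2.35. That of Notch3 to Notch1 was −3.74 ± 0.46 and 0.05 ± 0.40, a difference of 3.79, so that Notch3 and Notch1 stood at about equal levels per length in the rhWnt3a group. For each of these 2 differences the two-sided exact permutation test gave p = 0.1, which is the smallest p that 3 against 3 libraries allow. For Notch3 to Notch1 this p was fixed by the levels already given, since Notch3 was higher and Notch1 lower in every rhWnt3a library. It adds nothing to those levels. The summed RPKM of the receptors ran from 16.7 to 37.6 in vehicle and from 26.1 to 56.1 with rhWnt3a, and these ranges overlapped. Levels per length rest on the deposited gene lengths, 14232 bases for Notch1 and 8044 for Notch3. In CPM, the rhWnt3a group means were 12.2 for Notch1 and 6.63 for Notch3.

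**Figure D2:**
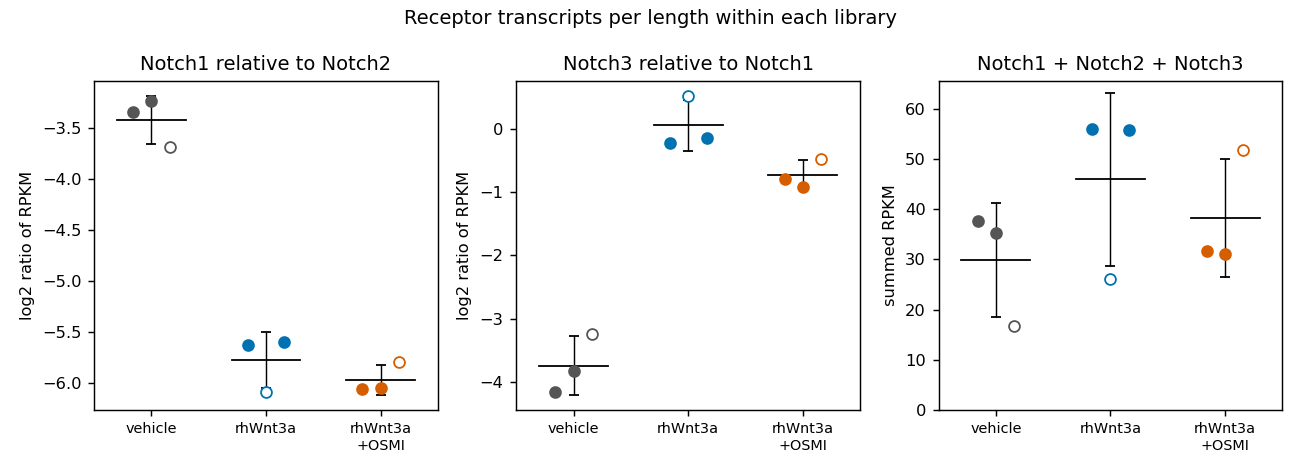
Log2 ratio of RPKM of Notch1 to Notch2 and of Notch3 to Notch1, and the summed RPKM of the 3 receptors, in each library, with the mean and SD of 3 libraries; open symbols are the libraries that lay apart. The ratios in the vehicle libraries are separate from those of the other groups, whereas the sums of all 3 groups overlap.

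The upstream stretches of Notch1, Notch3 and Hey2 are shown because these were the genes whose rhWnt3a libraries did not overlap with vehicle. They run 5′ to 3′ on the minus strand of GRCm38 and come from RefSeq's start sites, trimmed where an annotated exon begins. Capitals mark a match to the RBPJ motif.
Notch1, chr2:26503825-26504072, within an intron of the longer annotated gene: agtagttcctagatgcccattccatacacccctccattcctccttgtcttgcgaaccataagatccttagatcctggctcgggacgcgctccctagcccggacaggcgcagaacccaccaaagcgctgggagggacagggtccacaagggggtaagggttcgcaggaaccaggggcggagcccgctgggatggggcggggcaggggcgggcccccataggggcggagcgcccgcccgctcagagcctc
Notch3, chr17:32166891-32167140: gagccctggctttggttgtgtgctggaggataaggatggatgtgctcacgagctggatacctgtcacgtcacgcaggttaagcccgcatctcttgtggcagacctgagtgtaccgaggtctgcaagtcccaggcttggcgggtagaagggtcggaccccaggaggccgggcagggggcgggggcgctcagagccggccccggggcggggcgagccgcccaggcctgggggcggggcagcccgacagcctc
Hey2, chr10:30842802-30843033: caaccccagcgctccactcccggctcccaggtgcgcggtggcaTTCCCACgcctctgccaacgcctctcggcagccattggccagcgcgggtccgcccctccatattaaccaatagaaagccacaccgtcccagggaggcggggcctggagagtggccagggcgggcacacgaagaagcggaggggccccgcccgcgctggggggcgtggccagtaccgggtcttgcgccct
RefSeq windows were found for 7 of the 10 genes and were not found for Hes1, Hey1 and Heyl. The 250 bases before each start were searched on both strands for GTGGGAA, bound by RBPJ, and CTTTGAT, bound by TCF/LEF factors of the Wnt pathway; these motifs do not overlap each other. GTGGGAA was present in 1 of the 7 genes, Hey2, 207 bases before the start and on the opposite strand, against 6.18% of 27025 genes. CTTTGAT was present in 0 of the 7, against 3.72% of all genes. Such a match is a description of the letters and no evidence of binding.

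Neither ligand was called with rhWnt3a. Jag1 (chr2:137081456-137116644, minus strand), the main Notch ligand detected, was at 85.6, 85.8 and 79.3 CPM in vehicle and 99.7, 84.3 and 96.8 CPM with rhWnt3a. These values overlapped, and the log2 fold change of 0.16 had a 95% interval of −0.22 to 0.55 (edgeR adjusted p = 0.715). Dll1 (chr17:15367354-15376872, minus strand), a Delta-like ligand, had 9, 18 and 12 counts in vehicle and 13, 17 and 17 with rhWnt3a. Its log2 fold change was 0.23 (95% interval −0.60 to 1.06, adjusted p = 0.834).

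Of the downstream repressors, neither Hes1 nor Hey2 was called with rhWnt3a. Hes1 (chr16:30064384-30067796, plus strand), the classical Notch target, was at 2.44, 4.65 and 7.41 CPM in vehicle and 4.93, 8.58 and 5.44 CPM with rhWnt3a. The groups overlapped widely (log2 fold change 0.38, 95% interval −0.47 to 1.24, edgeR adjusted p = 0.695). Hey2 (chr10:30832359-30842801, minus strand), a Hey repressor with roles in the heart and vessels, had 15, 17 and 14 counts in vehicle and 8, 5 and 5 with rhWnt3a. All rhWnt3a libraries were lower, but the log2 fold change of −1.37 (SE 0.48, 95% interval −2.43 to −0.30) did not pass the test (adjusted p = 0.125). Notch1, Notch3 and Hey2 were the 3 of 7 tested genes whose vehicle and rhWnt3a libraries did not overlap, against 26.4% of all tested genes.

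Adding OSMI to rhWnt3a lowered Hes1 4.73-fold. It was the 1 gene of the 7 that was called in this comparison, or 14.3%, against 4.74% of all tested genes (1.69% higher and 3.05% lower). By the unadjusted p, 3 of the 7 passed, against 16.2% of all tested genes. The 7 log2 fold changes were all below 0, with a median of −0.49, where all tested genes had a median of −0.01. Apart from Hes1, these differences did not pass the test, and those of Notch1, Notch2 and Hey2 changed sign in at least 1 alternative.

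Hes1 fell from 4.93, 8.58 and 5.44 CPM with rhWnt3a to 1.27, 0.976 and 1.75 CPM with rhWnt3a and OSMI, from 81, 151 and 91 counts to 21, 17 and 30. The highest OSMI library lay below the lowest library of rhWnt3a and of vehicle. The log2 fold change against rhWnt3a was −2.24 (SE 0.43, 95% interval −3.19 to −1.29, edgeR adjusted p = 0.0187), and against vehicle −1.86 (SE 0.43, 95% interval −2.81 to −0.90, adjusted p = 0.0172), or 3.63-fold lower. Within the sides of the axis Hes1 was lower than with rhWnt3a by differences of −1.50 and −2.82, and lower than vehicle by −0.90 and −2.61. The calls rested on several libraries. Against rhWnt3a, the adjusted p was 0.0664 without rhWnt3a library 2, 0.0514 without rhWnt3a library 3, 0.0820 without OSMI library 1 and 0.0856 without OSMI library 2. Against vehicle, it was 0.0533 without vehicle library 2, 0.0643 without OSMI library 1 and 0.0706 without OSMI library 2. With trends in length and GC content taken out, Hes1 was called against rhWnt3a (adjusted p = 0.0132) and against vehicle (−1.63, adjusted p = 0.0160).

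Notch3 was at 2.18, 1.95 and 5.25 CPM with rhWnt3a and OSMI, between the vehicle and rhWnt3a levels. OSMI library 3 exceeded the lowest rhWnt3a library, and all 3 OSMI libraries exceeded all vehicle libraries. The log2 fold change against rhWnt3a was −1.08 (SE 0.41, 95% interval −1.99 to −0.17, edgeR adjusted p = 0.157). It was −1.68 without OSMI library 3 (adjusted p = 0.0313), −1.92 without the 3 libraries that lay apart (adjusted p = 3.92e-06) and −0.81 with the side of the axis as a term (adjusted p = 0.00816). Within the sides of the axis it was −0.56 and −1.01. Against vehicle it was 1.08 (SE 0.45, 95% interval 0.08 to 2.07, adjusted p = 0.135), 0.22 without the 3 libraries that lay apart (adjusted p = 0.562) and 1.35 with the side term (adjusted p = 8.53e-04). Once those 3 libraries are left out, the remaining OSMI libraries lie opposite all others on the axis. The values −1.92 and 0.22 thus set the sides of the axis against each other. The log2 ratio of Notch3 to Notch1 was −0.73 ± 0.23 in the OSMI group, lower than with rhWnt3a by a difference of −0.78, and did not overlap with it (exact permutation p = 0.1, the smallest possible).

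Dll1, near the limit of detection, had 6, 9 and 6 counts with rhWnt3a and OSMI, or 0.363, 0.517 and 0.350 CPM. In CPM these lay below every library of the other groups, the nearest being vehicle library 1 at 0.550 CPM, which had 9 counts. The log2 fold change of −1.16 against rhWnt3a (SE 0.40, 95% interval −2.05 to −0.27, edgeR adjusted p = 0.128) did not pass the test. Dll1 and Hes1 were the 2 of 7 tested genes without overlap between the rhWnt3a and OSMI groups, against 33.7% of all tested genes. Jag1 was at 71.3, 70.2 and 107 CPM with OSMI, spanning the rhWnt3a values (log2 fold change −0.17, adjusted p = 0.562).

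Notch1 and Notch2 showed no called difference on adding OSMI. Notch1 was at 6.65, 6.54 and 12.9 CPM and Notch2 at 335, 327 and 541 CPM, each overlapping with its rhWnt3a values. The log2 fold change of Notch1 was −0.49 (95% interval −1.60 to 0.62, edgeR adjusted p = 0.572) and that of Notch2 −0.25 (95% interval −1.07 to 0.57, adjusted p = 0.698). Without the 3 libraries that lay apart they were −1.25 (adjusted p = 2.33e-07) and −0.82 (adjusted p = 1.32e-08), whereas within the sides of the axis they were −0.28 and 0.31 for Notch1, and −0.10 and 0.29 for Notch2. Both high rhWnt3a libraries and both low OSMI libraries lie on opposite sides of the axis, so the fit without the 3 libraries sets one side against the other. The log2 ratio of Notch1 to Notch2 was −5.96 ± 0.15 with OSMI, a difference of −0.20 from rhWnt3a (exact permutation p = 0.4).

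**Figure D3:**
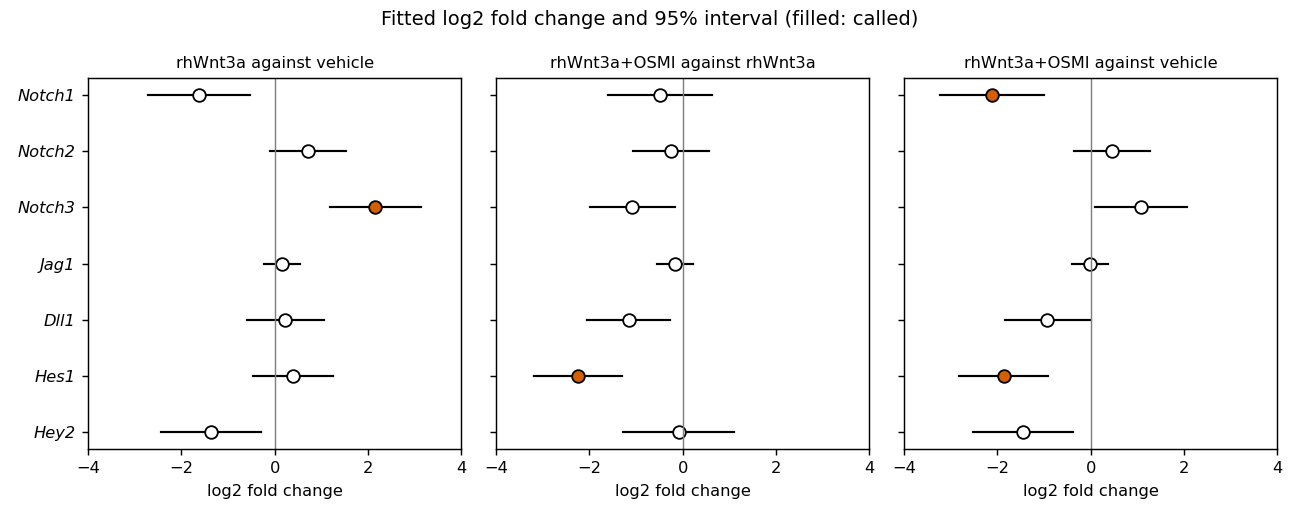
Fitted log2 fold changes of the 7 tested Notch genes with 95% intervals in the 3 comparisons; filled symbols were called. Notch3 is called with rhWnt3a, Hes1 on adding OSMI, and Notch1 and Hes1 in rhWnt3a with OSMI against vehicle.

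Set directly against vehicle, cells given rhWnt3a and OSMI had less Notch1 and less Hes1. These were 2 of the 7 tested genes, or 28.6%, against 14.2% of all tested genes (4.84% higher and 9.34% lower). By the unadjusted p, 5 of the 7 passed, against 22.8%. This comparison shares its libraries with those already described. Notch1 was 4.32-fold lower (log2 fold change −2.11, SE 0.50, 95% interval −3.23 to −0.99, edgeR adjusted p = 0.0197), with no overlap between the groups. Its adjusted p was 0.0727 without vehicle library 1, 0.0713 without vehicle library 2, 0.0790 without OSMI library 1 and 0.0787 without OSMI library 2. Within the sides of the axis Notch1 differed by −1.89 and −1.35. Notch1 made up 1.47, 1.48 and 1.75% of receptor RPKM in the OSMI libraries, and its log2 ratio to Notch2 differed from vehicle by −2.54 (exact permutation p = 0.1, the smallest possible).

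Hey2 had 8, 2 and 7 counts with rhWnt3a and OSMI, below the 14 to 17 counts of vehicle (log2 fold change −1.46, SE 0.48, edgeR adjusted p = 0.0706). Against rhWnt3a it differed by −0.09 (95% interval −1.29 to 1.11). Counts this low leave both bounds wide. Notch1, Notch3, Dll1, Hes1 and Hey2, 5 of the 7 tested genes, did not overlap between vehicle and the OSMI group, against 38.8% of all tested genes. Notch2 (log2 fold change 0.46, adjusted p = 0.430) and Jag1 (−0.01, 95% interval −0.40 to 0.37, adjusted p = 0.975) overlapped. The median over the 7 genes was −0.93, beside −0.01 for all tested genes.

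Within groups, the receptor levels followed the axis that separated the libraries more closely than those of Hes1, Hey2 and Dll1. Over the 9 libraries, the deviation from the group mean had a Pearson r with the axis of 0.99 for Notch1, 0.99 for Notch2, 0.92 for Notch3 and 0.79 for Jag1, against −0.49 for Hes1, 0.43 for Hey2 and −0.11 for Dll1. These are descriptions over libraries that share the axis. The axis was drawn from all tested genes and held 54.8% of their spread within groups. The r of all tested genes is not given here, so these values are not set against a background. Hey2 and Dll1 had at most 18 counts per library, where counting noise lowers r. Per comparison, the median log2 fold change of tested genes of at least 8000 bases was 0.03 with rhWnt3a, 0.20 on adding OSMI and 0.21 for both agents against vehicle, and that of genes under 2000 bases 0.11, −0.31 and −0.22. Hes1 has a gene length of 2037 bases. The part of length in the differences of single genes was not tested beyond the fits with length and GC trends taken out. In these, Notch3 with rhWnt3a (2.16, edgeR adjusted p = 0.00160) and Notch1 with both agents against vehicle (−2.38, adjusted p = 6.02e-04) were called as before. Unlike in the reported fit, Notch1 with rhWnt3a (−1.62, adjusted p = 0.00566) and Notch3 on adding OSMI (−1.32, adjusted p = 0.0259) were called too.

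**Figure D4:**
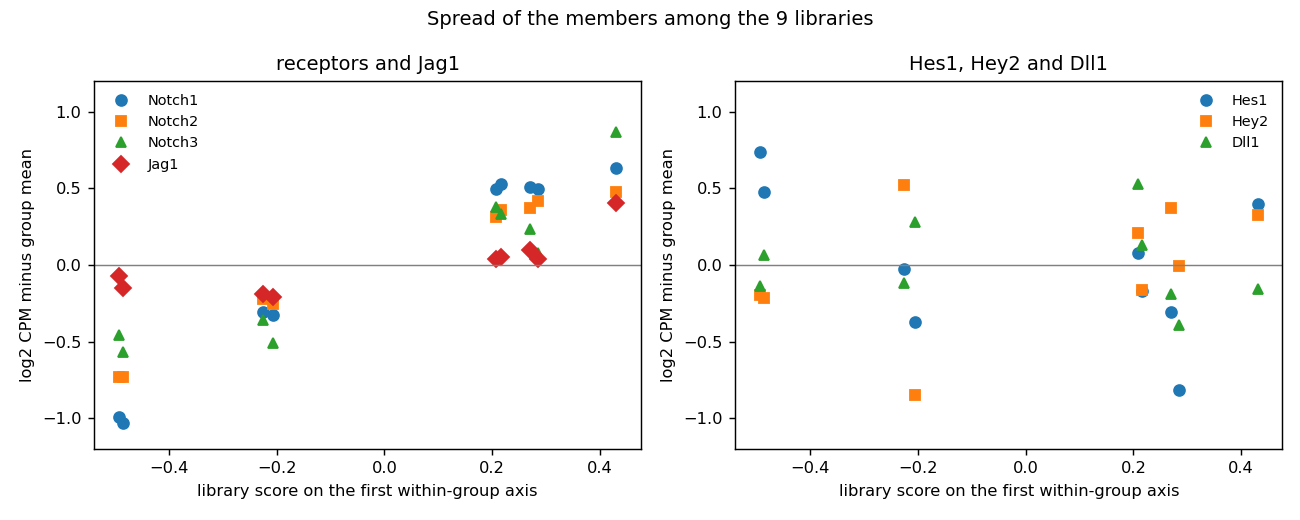
Log2 CPM of each Notch gene in each of the 9 libraries, less its group mean, against the library's score on the first within-group axis (no unit). Points of Notch1 and Notch2 climb along the axis from left to right, while those of Hes1, Hey2 and Dll1 scatter.

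Likeness of pattern over all 9 libraries was measured by Pearson's r of log2 CPM. The tested genes closest to Notch1 were Col12a1 (r = 0.992), Igdcc4 (0.990) and Man2b1 (0.990). Those closest to Notch3 were Rapgef3 (0.989), Mex3a (0.986) and Vldlr (0.981), and those closest to Hes1 were Chchd10 (0.974), Rhob (0.971) and Tead2 (0.969). These values take in both the differences between groups and the shared spread within them.

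The rest of the pathway was read from a list of 60 further genes, of which 49 could be tested. With rhWnt3a 1 rose and 2 fell, or 6.12% against 8.78% of all tested genes. On adding OSMI 2 fell and none rose, or 4.08% against 4.74%. Against vehicle, cells given both agents had 2 higher and 4 lower, or 12.2% against 14.2%. Each share was below that of all tested genes. The genes called belong to receptor glycosylation, the noncanonical ligands, receptor cleavage, receptor turnover and the corepressors, and none of the 7 genes of the transcription complex was called in any comparison.

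Among the enzymes that modify receptor sugars, Lfng fell with rhWnt3a and fell again on adding OSMI. Lfng encodes lunatic fringe, a Golgi enzyme that extends O-fucose on Notch and so alters which ligands a receptor answers. It was at 19.1, 19.4 and 21.7 CPM in vehicle, 6.14, 8.13 and 6.28 CPM with rhWnt3a, and 2.78, 4.13 and 3.96 CPM with rhWnt3a and OSMI. The 3 groups did not overlap at either step. On the log2 scale the change was −1.55 with rhWnt3a (SE 0.19, edgeR adjusted p = 7.31e-04), −0.92 on adding OSMI (SE 0.20, adjusted p = 0.0312) and −2.46 for both against vehicle (SE 0.20, adjusted p = 5.86e-05). The first and last were called in all 21 alternatives, and the OSMI step in 11 of them. The OSMI step had an adjusted p of 0.0617 without vehicle library 1, 0.0724 without vehicle library 2, 0.0694, 0.118 and 0.0794 without rhWnt3a libraries 1, 2 and 3, and 0.112 and 0.0830 without OSMI libraries 1 and 2.

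Pofut1, which adds the O-fucose that fringe extends, was at 67.1, 66.1 and 54.4 CPM in vehicle, 80.2, 68.8 and 85.3 CPM with rhWnt3a, and 95.5, 94.98 and 114 CPM with both agents. It was called against vehicle with both agents (log2 fold change 0.70, SE 0.14, edgeR adjusted p = 0.00962), and not for rhWnt3a alone (0.32, adjusted p = 0.246) or for the OSMI step (0.38, adjusted p = 0.154). The call against vehicle was lost in 3 of 21 alternatives, with a log2 threshold of 1, without the 3 libraries that lay apart (0.48, adjusted p = 1.19e-05) and with length and GC trends taken out (0.48, adjusted p = 0.00474), each time on the size of the change. Eogt, which attaches O-GlcNAc to the extracellular part of Notch and was singled out after its values were seen, was at 30.9, 30.5 and 31.2 CPM with both agents and 34.0, 30.2 and 34.8 CPM with rhWnt3a (log2 fold change −0.10, adjusted p = 0.692).

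Of the genes listed as noncanonical Notch ligands, 3 could be tested. Called lower were 1 with rhWnt3a, 1 on adding OSMI and 2 with both agents against vehicle. Of all tested genes, 5.86, 3.05 and 9.34% were called lower in these comparisons. With 3 genes, these counts are no result about the subgroup. The genes called, Ccn3 and Mfap5, encode secreted proteins. Ccn3, listed under its older symbol Nov and known to bind Notch1 and to inhibit osteoblast formation, was at 136, 139 and 200 CPM in vehicle, 55.3, 70.5 and 56.8 CPM with rhWnt3a, and 38.8, 44.5 and 42.5 CPM with both agents. It fell with rhWnt3a (log2 fold change −1.38, SE 0.18, edgeR adjusted p = 9.39e-04) and was lower with both agents than in vehicle (−1.92, SE 0.18, adjusted p = 1.37e-04), while the OSMI step itself was not called (−0.54, SE 0.17, adjusted p = 0.111). That step was called in 3 of 21 alternatives: by the unadjusted p, without vehicle library 3 (adjusted p = 0.0473) and with the side of the axis as a term (−0.62, adjusted p = 0.00219). Mfap5, a microfibril protein that can bind Jag1 and Notch1, was at 47.2, 50.8 and 45.5 CPM in vehicle and 41.1, 53.6 and 41.2 CPM with rhWnt3a, and fell to 22.3, 19.3 and 18.5 CPM on adding OSMI. Its vehicle and rhWnt3a values overlapped, and both lay clear of the OSMI values. The log2 fold change was −1.18 against rhWnt3a (SE 0.15, adjusted p = 0.00326) and −1.26 against vehicle (SE 0.15, adjusted p = 5.19e-04). The calls of Ccn3 and Mfap5 held in all 21 alternatives. The third noncanonical ligand that could be tested was Dlk2, a Delta-like membrane protein singled out after its values were seen. It was at 2.14, 2.48 and 4.64 CPM in vehicle, 0.669, 1.65 and 1.14 CPM with rhWnt3a, and 2.48, 3.67 and 1.40 CPM with both agents. All rhWnt3a libraries were below all vehicle libraries, but no comparison was called (log2 fold change −1.42 with rhWnt3a, adjusted p = 0.103). Of the ligands that could not be tested, Jag2 had 0 to 11 counts per library, Dll3, Dll4, Egfl7 and Mfap2 at most 5, and Dlk1 was at 0 throughout.

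**Figure D5:**
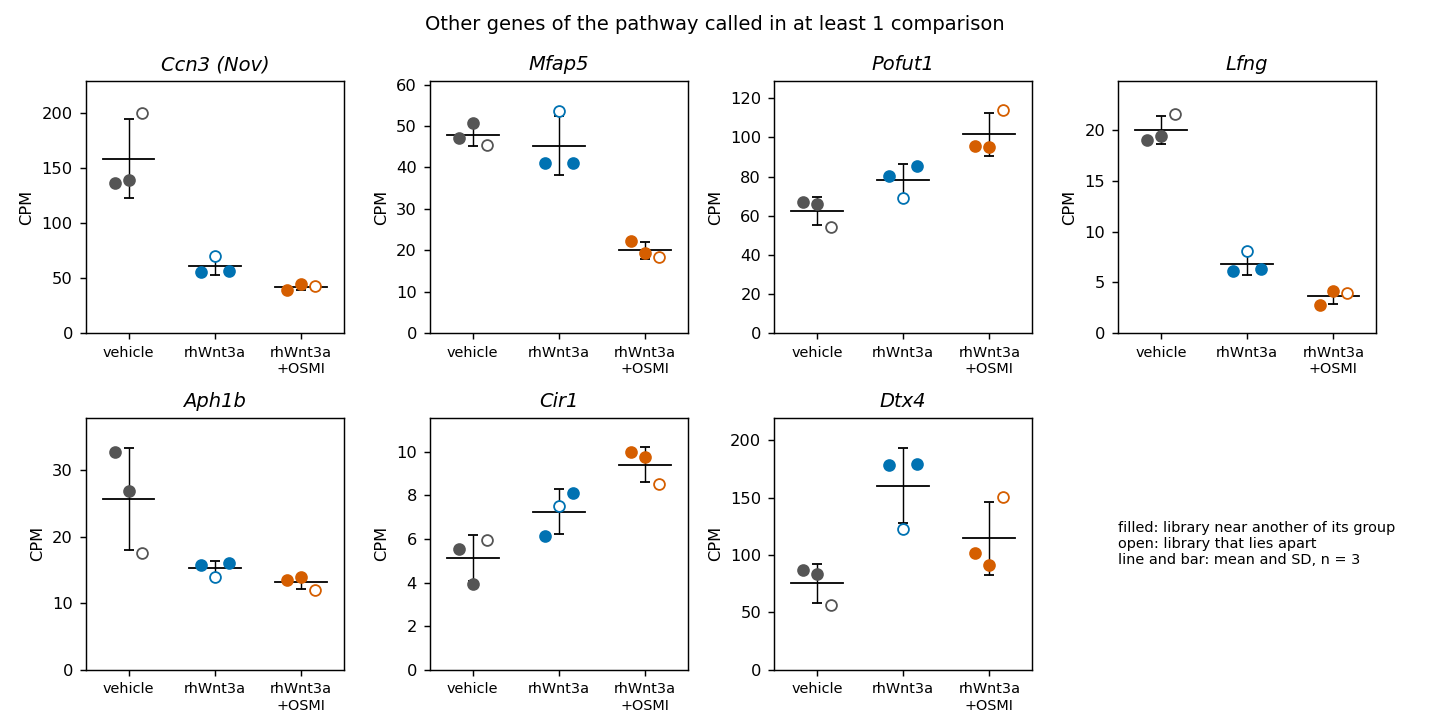
CPM of the 7 further pathway genes called in at least 1 comparison, in each library of the 3 groups, with the mean and SD of 3 libraries; open symbols are the libraries that lay apart. Lfng is separate at each step, Ccn3 is lower in both groups given rhWnt3a, and Mfap5 is lower with OSMI only.

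The other called genes of the list were Dtx4, Aph1b and Cir1. Dtx4, a Deltex ubiquitin ligase that acts on internalised Notch, was at 87.0, 83.7 and 56.0 CPM in vehicle, 179, 123 and 180 CPM with rhWnt3a, and 102, 91.0 and 151 CPM with both agents. It rose with rhWnt3a (log2 fold change 1.08, SE 0.25, edgeR adjusted p = 0.0213) and was not called at the OSMI step (−0.48, adjusted p = 0.267). The adjusted p of its rise was 0.0544, 0.0569 and 0.0522 without vehicle libraries 1, 2 and 3, and 0.0757 and 0.0868 without rhWnt3a libraries 1 and 3. Aph1b, a γ-secretase subunit, was at 32.7, 26.9 and 17.5 CPM in vehicle, 15.7, 13.9 and 16.1 CPM with rhWnt3a, and 13.5, 13.9 and 11.9 CPM with both agents. It was called with both agents against vehicle (log2 fold change −0.97, SE 0.21, adjusted p = 0.0135). Without vehicle library 1 or 2 that adjusted p was 0.0552 or 0.0577. It was not called with rhWnt3a (−0.75, adjusted p = 0.0548, called in 8 of 21 alternatives) or at the OSMI step (−0.21, adjusted p = 0.560). Of its transcript, 31.5% is nearly identical to Aph1c. Cir1, a corepressor partner of RBPJ, was at 5.56, 3.95 and 5.94 CPM in vehicle, 6.14, 7.50 and 8.14 CPM with rhWnt3a, and 9.98, 9.76 and 8.51 CPM with both agents. It was called with both agents against vehicle (log2 fold change 0.87, SE 0.20, adjusted p = 0.0176). That adjusted p was 0.0567 without vehicle library 2 and 0.0528 without OSMI library 1. It was not called with rhWnt3a (0.49, adjusted p = 0.198) or at the OSMI step (0.37, adjusted p = 0.289). Cir1 overlaps Scrn3 on the opposite strand, and without a stated strand setting their reads cannot be told apart.

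The most abundant of the genes not called were the ubiquitin ligase Nedd4 (mean 157 RPKM over the 9 libraries), the corepressor Ctbp1 (47.1 RPKM) and the DNA-binding partner of Notch, Rbpj (38.6 RPKM). The log2 fold changes of Rbpj were 0.19 with rhWnt3a, 0.28 on adding OSMI and 0.47 for both against vehicle (edgeR adjusted p = 0.655, 0.355 and 0.0985). Among further target genes, Hes6 was tested and not called, Hes7 had 3 to 7 counts per library and Hes5 was at 0. Notch4, the remaining receptor, had 4 to 13 counts per library and was not called.

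Dtx1, another Deltex gene and a known Notch target in lymphocytes, did not reach the count minimum and was singled out after its values were seen. It had 0 counts in all 6 vehicle and rhWnt3a libraries, and 9, 7 and 19 counts in the OSMI libraries. Set against a floor of 3 counts per library, its mean with both agents was at least 3.86-fold higher than with rhWnt3a and at least 3.77-fold higher than in vehicle. In the edgeR fit without the count minimum, the adjusted p was 9.72e-04 and 4.88e-04. Dtx1 was picked for these counts, so these p-values are no independent test of it. In that fit the SE of Notch1 with rhWnt3a was 0.27, against 0.49 in the reported fit.

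Some of these genes share sequence or position with others. Notch1 shares 14.6% of its transcript with 2 overlapping or nearly identical genes, Notch2 5.21%, Notch3 6.20%, Dll1 17.5% and Nrarp 79.6%, and those overlapping genes had at most 82 counts summed over the 9 libraries. No overlapping or nearly identical gene was found for Jag1, Hes1, Hey2 or Lfng.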

How the data were processed

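ST2 cells were profiled at 72 h by poly(A) RNA-seq, 3 libraries per group. Per the labels, the submitters' processing notes name CASAVA, fastp, HISAT2 2.0.5, featureCounts 1.5.0-p3 and the mouse build mm10; the annotation and the strand setting are not given in the sources used here. The authors deposited raw read counts per gene with gene lengths. The same table holds their FPKM values and their DESeq2 comparisons (fold changes and p-values), which were not used.

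Counts were tested with edgeR 4.0.16 (filterByExpr with a minimum count of 10 and a minimum total of 15, TMM, two-sided quasi-likelihood test, all 9 libraries in 1 fit) under R 4.3.3, with Benjamini-Hochberg adjustment over 14004 genes. Calls required both an adjusted p below 0.05 and a change of more than 0.5 on the log2 scale. The script was tested on simulated data. CPM and RPKM were computed from the deposited counts and gene lengths. Intervals are 95%, and the floor of 3 counts covers counting error only. Alternatives numbered 21, with DESeq2 1.42.0 among them, and 3 of these (without the libraries that lay apart, the side of the axis as a term, length and GC trends taken out) were chosen after seeing the data. No 2 libraries were alike within sampling noise.

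Coordinates are those of the table; 53499 of its 54532 genes have the same start and end in GENCODE M21 (GRCm38). Upstream windows come from RefSeq (GRCm38.p6). The Notch genes and lists were chosen with earlier results of these data known; the further pathway list was drawn from general knowledge. Named were all 10 Notch genes, each further gene called, the 3 uncalled ones highest in mean RPKM, and the 3 genes most like each called Notch gene.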

Additional observations from a re-analysis of the deposited data

How the results depend on the processing

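Of the 10 Notch genes, 1, 1 and 2 were called with rhWnt3a, on adding OSMI, and with both agents against vehicle; of the wider list 3, 2 and 6. Leaving out 1 library at a time gave 0 to 2, 0 to 2 and 0 to 2 Notch genes, and 2 to 4, 1 to 3 and 4 to 7 of the wider list. In the order of these 3 comparisons, no count filter gave 2, 2 and 3 Notch genes and 5, 7 and 10 of the wider list, an unadjusted p gave 3, 3 and 5 Notch genes and 6, 7 and 9 of the wider list, and leaving out the 3 libraries that lay apart gave 3, 4 and 3 Notch genes and 8, 4 and 11 of the wider list. In the last 2 comparisons, leaving out those 3 libraries sets the sides of the axis against each other. The side of the axis as a term gave 3, 2 and 5 Notch genes and 5, 13 and 18 of the wider list. Beyond the reported fit, the share of all tested genes is given here only for the unadjusted p (15.4, 16.2 and 22.8%). Counts under the other alternatives therefore describe the settings and are no result about the Notch genes. DESeq2 gave 2 Notch genes and 5 of the wider list with rhWnt3a, and length and GC trends taken out gave 2 Notch genes with rhWnt3a and 2 on adding OSMI. A log2 threshold of 1 left 1 of the wider list on adding OSMI and 3 against vehicle, and a fit on the 6 libraries of the comparison left 1 on adding OSMI. Replicates with the same number did not deviate together (mean correlation −0.18, 0.13 and −0.31 over the same-numbered pairs of the 3 comparisons), so the numbers were not taken as a pairing; with the replicate block, 1 Notch gene, Hes1, was called against vehicle, since Notch1 (−2.17, edgeR adjusted p = 0.0522) was not, and 1 of the wider list on adding OSMI. Signs turned only in differences that were not called in the reported fit. Hey2 on adding OSMI ran from −0.40 to 0.35 when 1 library was left out, above 0 without rhWnt3a library 1 or OSMI library 2, and was 0.037 with the side term. Jag1 against vehicle ran from −0.24 to 0.14 when 1 library was left out, above 0 without vehicle library 1 or 2, rhWnt3a library 1 or 2, or OSMI library 1 or 2, and was 0.010 with at least 10 counts in every library, 0.034 on 6 libraries and 0.070 with the side term. With the side term Notch1 was 0.014 and Notch2 0.12 on adding OSMI, and without the 3 libraries that lay apart Notch2 was −0.14 against vehicle. The cause of these shifts was not tested. Depth limits Dll1 and Hey2, with at most 18 counts per library, and the 3 genes below the count minimum, of which Nrarp also shares most of its transcript with another gene.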
